A study of Mus musculus with 217 samples.

Results

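The genes described here encode the nuclear subunits of oxidative phosphorylation, in mouse striatum over the day. They were chosen by symbol: protein-coding genes that begin with Ndufa, Ndufb, Ndufc, Ndufs, Ndufv, Sdha, Sdhb, Sdhc, Sdhd, Uqcr, Cox4i, Cox5, Cox6, Cox7, Cox8 or Atp5, without the Ndufaf assembly factors. The rule held for 90 genes of the GENCODE M21 annotation, of which 82 were in at least 1 table and 81 in all 3. They were 81 of 11867 genes in the nucleus accumbens (NAc), 82 of 12101 in the dorsomedial striatum (DMS) and 81 of 11394 in the dorsolateral striatum (DLS). Of the 82, 36 belong to complex I, 4 to complex II, 8 to complex III, 12 to complex IV and 16 to complex V. The rule also took in 4 complex II assembly factors (Sdhaf1, Sdhaf2, Sdhaf3 and Sdhaf4), Cox7a2l, which joins complexes III and IV, and Atp5s, a coupling factor that is not a core subunit. Ndufa4 was counted with complex IV, of which it is now known to be a subunit. Cox6a2, the muscle form of subunit 6a, was listed in DMS alone. A second Atp5o identifier, Cox4i2, Cox6b2, Cox7a1, Cox7b2, Cox8b, Cox8c and Ndufa4l2 were in none of the tables and were not analysed here.

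RNA was sequenced from 1 mm punches of these 3 striatal regions of wild-type C57BL/6J mice of both sexes, about 10 weeks old, kept in 12 h of light and 12 h of dark. Mice were killed at 6 Zeitgeber times (ZT, hours after lights on): ZT2, ZT6 and ZT10 in the light, ZT14, ZT18 and ZT22 in the dark. Of 217 libraries, 77 were from NAc (40 male, 37 female), 70 from DMS (36 male, 34 female) and 70 from DLS (35 male, 35 female), with 5 to 7 libraries per sex and time. Each library of a region came from a separate animal, many animals gave several regions, and values are log2 of DESeq2-normalised counts scaled by the authors within each region.

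Oxidative phosphorylation passes electrons from NADH (through complex I) and succinate (through complex II) to ubiquinone, then through complex III and cytochrome c to oxygen at complex IV. Complexes I, III and IV pump protons, and complex V, the ATP synthase, lets them flow back to make ATP. All but complex II combine nuclear subunits with subunits made from mitochondrial DNA, and the brain relies on this route for most of the ATP that ion pumping and synapses need. Mitochondria also make their own ribosomal RNA, mt-Rnr1 and mt-Rnr2. In these total RNA libraries the 2 formed between 13.2% and 53.03% of all normalised counts, and their share is given beside the subunits below.

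All 10 striatal projection neuron markers were measured in each region, with summed levels of 15.9 to 17.3 in NAc, 16.96 to 17.7 in DMS and 16.9 to 17.5 in DLS (log2). Depth was 35.7 to 57.5 M reads in DMS and 30.9 to 59.4 M reads in DLS, recovered from whole-read steps in the values. In NAc only a median of 2.04% of values were whole reads, so those values had a further adjustment that no label records, and the NAc depth is unknown. Animals carry numbers up to 29 or from 31. In DMS the median mitochondrial rRNA share was 41.1% (35.3 to 52.6%) in the 26 libraries from 31 and 25.04% (19.02 to 46.4%) in the 44 up to 29. The higher numbers gave 3 of the 12 ZT2 libraries, 3 of the 12 ZT6, 7 of the 11 ZT10, 5 of the 11 ZT14, 6 of the 12 ZT18 and 2 of the 12 ZT22 libraries of DMS, so time, number and share are partly confounded there. In bulk tissue, fewer cells of a type and less RNA per cell cannot be told apart.

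The subunit transcripts were among the most abundant of the striatum. Per kilobase of annotated exon, the subunits' medians in NAc were 1213 normalised counts for complex I, 1010 for complex II, 1930 for complex III, 3097 for complex IV and 1387 for complex V. Each of these medians stood at or above the 91.9th percentile of all NAc genes. The order was the same in DMS (1034, 964, 1702, 2723 and 1367 normalised counts per kb) and in DLS (948, 847, 1692, 2859 and 1237). The highest member in every region was Atp5a1, the alpha subunit of the ATP synthase catalytic head, at 7142 normalised counts per kb in NAc, 7296 in DMS and 6539 in DLS. Cox4i1, the main form of the regulatory subunit 4 of cytochrome c oxidase, had 6654, 6033 and 6059 in these 3 regions, and its partner Cox8a had 6394, 6406 and 5688.

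Low members stood within the same complexes. Complex I ran from Ndufb2 at 79.0 normalised counts per kb in NAc to Ndufb9 at 5412, both accessory subunits of its membrane arm. The exon lengths sum the exons of all annotated transcripts, which are 5628 bp for Ndufb2 and 1031 bp for Ndufb9, so a long annotation lowers the value. Atp5g1, Atp5g2 and Atp5g3 encode the same mature subunit c, which forms the rotor ring of the ATP synthase. Their levels in NAc were 205, 190 and 1199 normalised counts per kb, and Atp5g3 was also the highest of the 3 in DMS (1252) and DLS (1168). The 4 complex II assembly factors had medians of 104, 108 and 87.5 normalised counts per kb in NAc, DMS and DLS, with a median percentile among all genes of 35.9, 34.7 and 34.3. Between forms of subunit 6a, Cox6a2 had 136 normalised counts per kb in DMS and Cox6a1, the form of most tissues, had 3991. Sdha, the flavoprotein of complex II that oxidises succinate, had the smallest spread of all members between libraries, with an SD of 0.094, 0.053 and 0.060 (log2) in NAc, DMS and DLS.

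**Figure D1:**
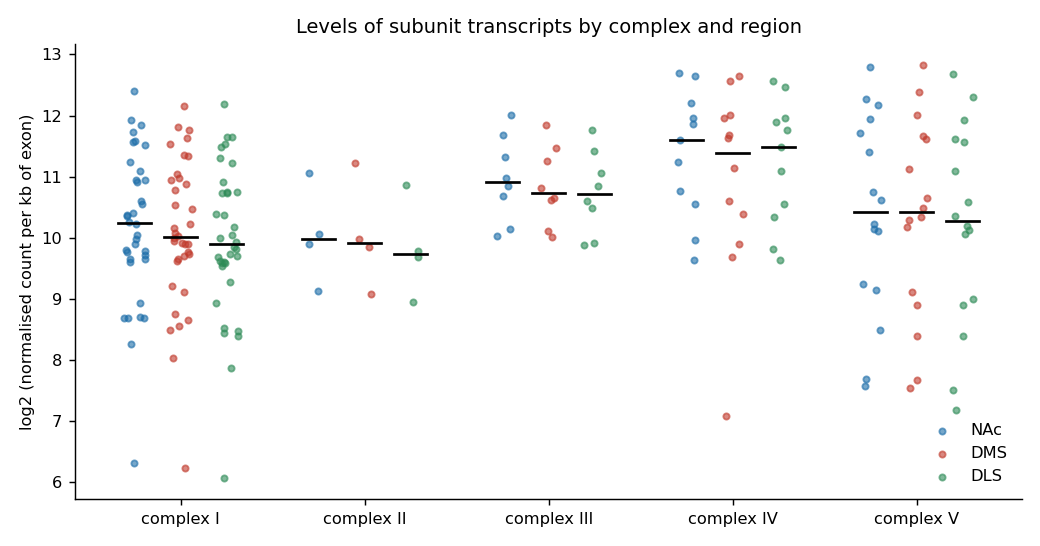
Level of each subunit (1 point a gene, mean over libraries) by complex in NAc, DMS and DLS, as log2 normalised count per kb of annotated exon, with a line at the median of each complex. Complex IV has the highest median in every region, and single low points are Ndufb2 in complex I and, in DMS, Cox6a2 in complex IV.

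Promoters of 67 of the 82 genes were matched in the RefSeq table (GRCm38.p6), each with 250 bases before and 50 after the start. The NRF1 motif (GCGCA, any base, then GCGC), searched like all others on both strands, was in 20 of their 72 promoter entries (27.78%), against 6.364% of the 21230 entries of all protein-coding genes. NRF1 is a known activator of respiratory chain genes. The ETS motif CCGGAAG, bound by GABP, was in 19 of the 72 (26.39%), against 11.56%. The YY1 motif AAGATGGCG was in 7 (9.722%, against 1.828%) and the ERR motif TNAAGGTCA in 3 (4.167%, against 1.032%). Of motifs of the circadian clock, the E-box CACGTG was in 6 (8.333%, against 7.833%), the D-box TTATGNAA in 2 (2.778%, against 3.09%) and the RORE (A, any 2 bases, then TAGGTCA) in 0 (against 0.6076%). The 250 bases before the start are shown for the 3 genes of subunit c, because they make the same mature protein under different promoters. They are also shown for Ndufb4 and Cox7b, which are named in the time course below. Capitals mark a motif, and all were read 5′ to 3′ on the gene's strand from RefSeq. The windows are chr11:96075632-96075881 on the minus strand for Atp5g1 (1 E-box), chr15:102671048-102671297 minus for Atp5g2 (1 NRF1 motif, which reads as a match on both strands) and chr2:73911327-73911576 minus for Atp5g3 (1 E-box and 1 ERR motif on the other strand, with a further NRF1 motif in the 50 bases after the start). They are chr16:37654369-37654618 minus for Ndufb4 (3 NRF1 motifs and 1 ERR motif) and chrX:106015450-106015699 plus for Cox7b (2 D-boxes). A match is a description of the letters and not a bound site, and no link between a motif and a rhythm was tested.
Atp5g1: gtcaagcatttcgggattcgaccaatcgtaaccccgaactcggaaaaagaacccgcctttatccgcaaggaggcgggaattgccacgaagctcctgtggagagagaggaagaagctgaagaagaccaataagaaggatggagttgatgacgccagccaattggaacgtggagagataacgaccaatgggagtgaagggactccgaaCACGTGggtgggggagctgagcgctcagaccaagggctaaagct
Atp5g2: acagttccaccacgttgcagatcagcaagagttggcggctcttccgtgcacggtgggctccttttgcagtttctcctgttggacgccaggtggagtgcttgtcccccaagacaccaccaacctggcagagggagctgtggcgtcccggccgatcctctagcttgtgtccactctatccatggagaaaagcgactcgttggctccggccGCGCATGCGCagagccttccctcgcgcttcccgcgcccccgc
Atp5g3: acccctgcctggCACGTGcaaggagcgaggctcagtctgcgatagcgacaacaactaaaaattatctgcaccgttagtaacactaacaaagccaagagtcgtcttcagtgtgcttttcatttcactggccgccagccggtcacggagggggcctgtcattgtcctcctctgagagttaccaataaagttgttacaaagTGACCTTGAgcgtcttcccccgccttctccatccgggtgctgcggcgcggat
Ndufb4: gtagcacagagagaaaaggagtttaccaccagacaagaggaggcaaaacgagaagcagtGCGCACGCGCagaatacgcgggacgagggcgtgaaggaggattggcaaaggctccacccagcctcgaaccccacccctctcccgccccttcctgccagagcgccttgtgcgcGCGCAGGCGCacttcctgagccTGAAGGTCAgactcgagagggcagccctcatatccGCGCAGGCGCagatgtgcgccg
Cox7b: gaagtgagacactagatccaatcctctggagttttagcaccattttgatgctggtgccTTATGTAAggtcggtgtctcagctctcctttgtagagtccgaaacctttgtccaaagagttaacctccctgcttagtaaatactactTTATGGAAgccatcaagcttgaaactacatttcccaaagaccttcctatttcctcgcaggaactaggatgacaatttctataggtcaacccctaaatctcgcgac

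Whether the subunit transcripts follow the time of day was tested in each region with a 24 h cosine in limma, with a sex term and Benjamini-Hochberg adjustment over all genes. The amplitude is the log2 distance of the fitted peak from the fitted mean, and the fold runs from trough to peak. In NAc 0 of 81 members were rhythmic at an adjusted p under 0.05, where 2.56% of all genes were, and 9 (11.1%) had an unadjusted p under 0.05, against 15.1% of all genes. The median amplitude was 0.08 (log2) over the members and 0.075 over all genes. The member nearest the threshold was Atp5g1, a gene of subunit c. Its NAc medians were 9.77, 9.88, 9.91, 9.95, 10.20 and 10.06 at ZT2, ZT6, ZT10, ZT14, ZT18 and ZT22, with lowest libraries at 9.45, 9.38, 9.44, 9.53, 9.56 and 9.65 and highest at 10.42, 10.53, 10.30, 10.40, 10.44 and 10.40 (log2 normalised counts). The groups overlapped at every time, and the highest medians were at ZT18 and ZT22. Its amplitude was 0.14 ± 0.04 SE (1.21-fold, peak at 18.3 h), with a limma adjusted p of 0.121. Cox6a1, a subunit of cytochrome c oxidase (amplitude 0.14, peak at 18.8 h, limma adjusted p = 0.137), and Ndufa3, an accessory subunit of complex I (0.14, 17.7 h, limma adjusted p = 0.184), came next. With the share as covariate 2 of 81 passed, and without 1 library (male ZT6 number 13) 1 did, both without the percentage of all genes beside them.

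In DMS 59 of 82 members were rhythmic, where 51.3% of all genes were. The called members peaked between 7.78 and 14.6 h, with a median of 13.2 h, around the change from light to dark, and 57 of the 59 peaked between 11 and 15 h. The median amplitude was 0.14 over the members and 0.11 over all genes (log2). Scaling every DMS library to the same sum would add 1 common 24 h course to every gene, with an amplitude of 0.18 (log2) and a peak at 2.18 h. That exceeds the members' median amplitude and lies far from their median peak, so amplitudes and peak times in DMS depend on the scaling. The calls covered 24 of 36 subunits of complex I, 3 of 4 of complex II, 7 of 8 of complex III, 8 of 12 of complex IV and 14 of 16 of complex V. Ndufb4, an accessory subunit of the membrane arm of complex I, had the largest amplitude. Its DMS medians were 10.65, 10.72, 11.15, 11.29, 11.12 and 10.61 at ZT2, ZT6, ZT10, ZT14, ZT18 and ZT22, with lowest libraries at 10.05, 10.32, 10.55, 10.62, 10.48 and 10.20 and highest at 11.35, 11.60, 11.69, 11.85, 11.34 and 11.42 (log2 normalised counts). The medians at ZT10, ZT14 and ZT18 stood above the other 3, and every time overlapped every other. The amplitude was 0.29 ± 0.06 SE, a 1.49-fold change that peaked at 13.1 h (limma adjusted p = 0.000679). Atp5l, subunit g of the ATP synthase membrane part, followed with 1.45-fold (13.03 h, limma adjusted p = 0.00145) and Cox6c, a small subunit of cytochrome c oxidase, with 1.43-fold (13.3 h, limma adjusted p = 0.0025).

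With all animal numbers pooled, the medians of the mitochondrial rRNA share and of the DMS members were both higher from ZT10 to ZT18. The share had medians of 24.5% at ZT2, 25.6% at ZT6, 35.9% at ZT10, 39.8% at ZT14, 41.1% at ZT18 and 23.8% at ZT22. The mean log2 value over the 82 members had medians of 10.69, 10.75, 11.07, 11.06, 10.97 and 10.76 at the same times. Among animals numbered from 31 this value averaged 11.222, 11.162, 11.185, 11.209, 11.104 and 11.263 at these times. Among those up to 29 it averaged 10.665, 10.741, 10.741, 10.833, 10.83 and 10.689. The parts of time and animal number in the pooled course were not told apart. With the share in the model 8 of 82 members were rhythmic (28.6% of all genes), and 78 of the 82 had a smaller amplitude. Over the 59 called without it, the median ratio of the amplitude with the share to that without was 0.231. The median amplitude was then 0.045 over the members and 0.067 over all genes. Leaving the share out and giving each range of animal numbers a term left 15 of 82. Within the 44 libraries numbered up to 29, 23 members were rhythmic, and within the 26 from 31, 1 was. The percentages of all genes called in the fits by animal number are not given. These counts therefore do not set the members apart from other genes.

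**Figure D2:**
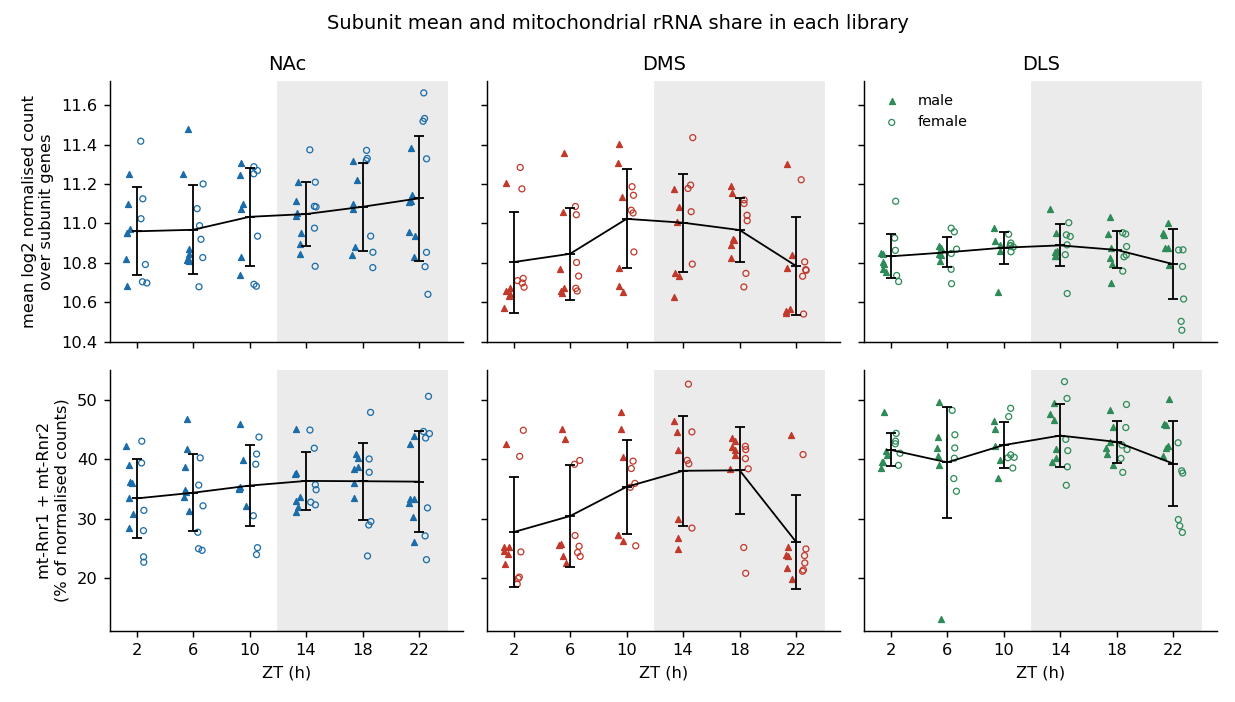
Mean log2 normalised count over the members (top) and mitochondrial rRNA share in percent of normalised counts (bottom) by Zeitgeber time in h, in NAc, DMS and DLS, with 1 symbol a library (triangles male, circles female), lines at the means, bars of ±SD and the dark phase shaded. In DMS, with all animal numbers pooled, both panels are high between ZT10 and ZT18, where the medians of the share are 35.9 to 41.1%. In DLS the subunit means run from 10.79 at ZT22 to 10.89 at ZT14.

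The 8 members that were rhythmic with the share peaked earlier, between 0.49 and 7.61 h, in the light. They were Sdhaf1, Sdhaf3, Ndufv3, Atp5mpl, Cox7b, Ndufa12, Atp5k and Ndufb2, and 4 of them (Sdhaf1, Ndufv3, Atp5mpl and Cox7b) were also called without the share. Sdhaf1, a small protein that helps insert the iron-sulphur clusters of complex II, had the smallest p. It lies at chr7:30321406-30323895 on the minus strand of GRCm38. Its DMS medians were 8.34, 8.63, 8.54, 8.38, 8.24 and 8.38 at ZT2, ZT6, ZT10, ZT14, ZT18 and ZT22, with lowest libraries at 8.03, 7.96, 8.25, 7.89, 7.65 and 7.75 and highest at 8.62, 9.03, 8.97, 8.94, 8.49 and 8.82 (log2 normalised counts). ZT6 and ZT10 held the highest medians and ZT18 the lowest, with overlap between all times. With the share its amplitude was 0.21 ± 0.04 SE, a 1.33-fold change with a peak at 5.83 h (limma adjusted p = 0.000225), and without it 0.18, with a peak at 7.78 h (limma adjusted p = 0.0037). Within animals numbered up to 29 the share-adjusted amplitude was 0.15 (limma adjusted p = 0.157), and within those from 31 it was 0.26 (limma adjusted p = 0.000312). A gene on the opposite strand, E130208F15Rik, overlaps Sdhaf1, and strand use in counting is not given in the sources used here.

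Sdhaf3, a second complex II assembly factor, changed 1.28-fold with a peak at 2.64 h when the share was in the model (amplitude 0.18 ± 0.04 SE, limma adjusted p = 0.000928). Ndufv3 is a small accessory subunit of the NADH-oxidising arm of complex I. Its DMS medians were 10.37, 10.41, 10.66, 10.41, 10.27 and 10.37 at ZT2, ZT6, ZT10, ZT14, ZT18 and ZT22, with lowest libraries at 10.20, 10.33, 10.36, 10.11, 10.16 and 10.18 and highest at 10.61, 10.69, 10.73, 10.59, 10.60 and 10.51 (log2 normalised counts). ZT10 stood above the other times by its median and ZT18 was lowest, with overlap. The amplitude was 0.10 ± 0.02 SE with the share (1.15-fold, peak at 7.61 h, limma adjusted p = 0.000979) and much the same without it (0.10, peak at 8.84 h, limma adjusted p = 0.0012). Cox7b, a subunit of cytochrome c oxidase on the X chromosome, changed 1.12-fold with a peak at 5.29 h (limma adjusted p = 0.0158). Ndufa12, an accessory subunit of complex I, changed 1.17-fold (limma adjusted p = 0.0211), and Atp5k, subunit e of the ATP synthase, 1.20-fold (limma adjusted p = 0.0311). The call of Ndufb2 (limma adjusted p = 0.0433) was lost in 23 of 70 fits that each left out 1 library.

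Core subunits that hold redox centres, quinone sites or catalytic sites, with their nearest partners, were set apart as a list of 20, from Ndufs1 and Ndufv1 of complex I to Atp5a1, Atp5b and Atp5c1 of complex V. In DMS 15 of these 20 and 44 of the other 62 members were rhythmic (51.3% of all genes). With the share 0 of the 20 were (28.6% of all genes), with amplitudes of at most 0.06, and all 8 calls fell among the other 62. In DLS 5 of the 20 (Atp5a1, Ndufs1, Ndufs3, Sdhc and Uqcrc1) and 6 of the other 61 were rhythmic (21% of all genes). No difference between core and other subunits was tested.

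A cosine allows 1 peak, so the share-adjusted DMS members were also fitted without that shape. Departure from a cosine was not tested. With time as 6 separate levels and the share, 31 of 82 differed over time, near the 35.7% of all genes. The members' median stood lowest at ZT18, at -0.08 (log2) from the mean of the 6 times, where 3 of 82 were above their mean. It was highest at ZT10 (0.05, 77 of 82 above) and ZT22 (0.05, 73 of 82 above). In between, ZT2 stood at 0.02 (63 above), ZT6 at -0.0098 (33 above) and ZT14 at -0.04 (16 above). The median over all genes stayed between -0.0029 and 0.0019, with 48.5 to 51.1% of all genes above their mean at each time. Members vary together between libraries, so these counts are not independent, and they were not tested. Sdhaf1 had the largest excursions, with 0.21 at ZT6 and -0.32 at ZT18, and Cox6a2 ran the other way, with -0.16 at ZT10 and 0.15 at ZT18. With a further term for the range of animal numbers 9 of 82 members passed (29.6% of all genes), all 9 of them among the 31.

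**Figure D3:**
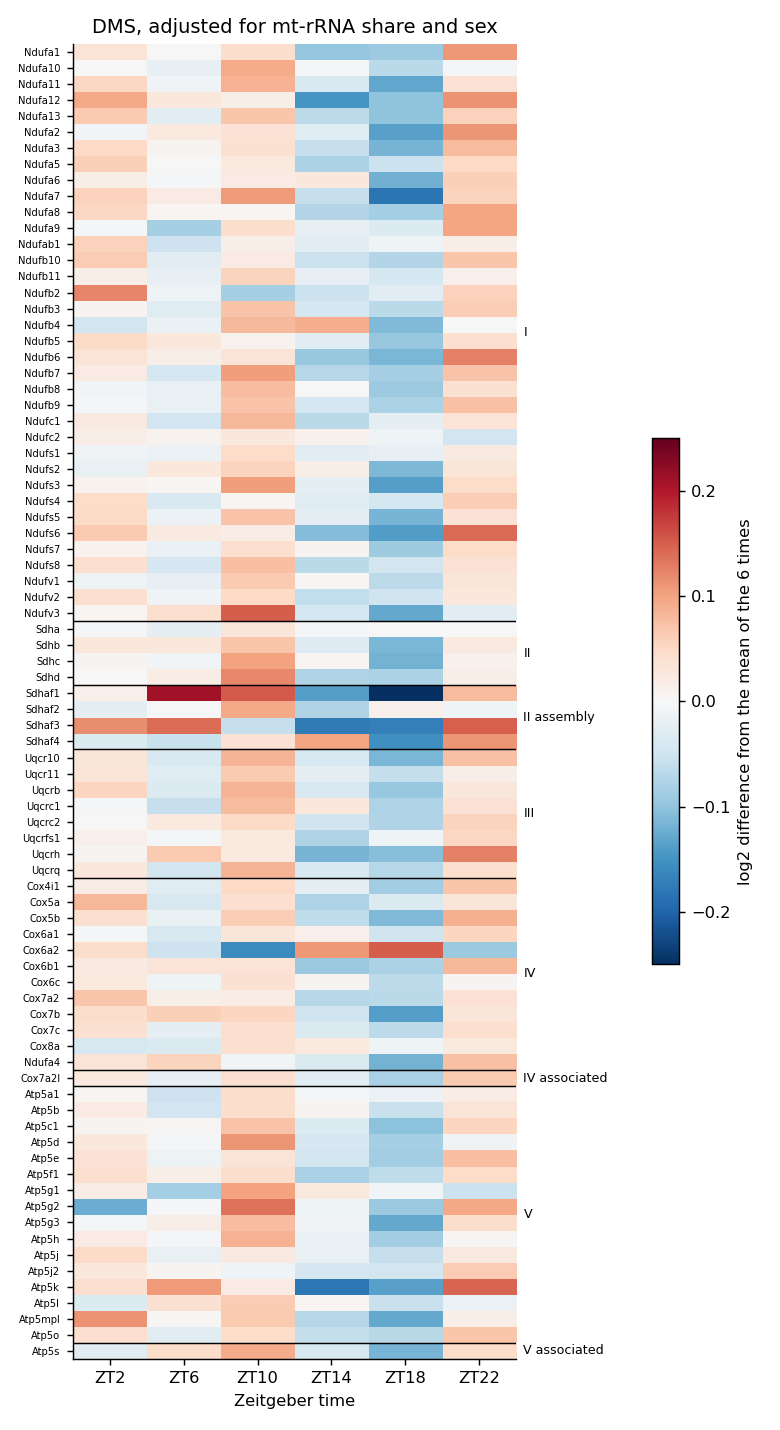
Share- and sex-adjusted DMS level of each of the 82 members (rows, grouped by complex) at each Zeitgeber time (columns), as log2 difference from the gene's mean over the 6 times. ZT18 is below the mean in nearly every row, with 3 of 82 members above it, against 50.5% of all genes. Sdhaf1 and Sdhaf3 show the strongest colours.

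In DLS 11 of 81 members were rhythmic, where 21% of all genes were, and the median amplitude was 0.048 over the members and 0.067 over all genes. The 11 peaked between 6.29 and 13.7 h. They were 4 of 36 subunits of complex I (Ndufs3, Ndufb4, Ndufb9 and Ndufs1), 1 of 4 of complex II (Sdhc), 1 of 4 assembly factors (Sdhaf1), 1 of 8 of complex III (Uqcrc1), 0 of 11 of complex IV, Cox7a2l, and 3 of 16 of complex V (Atp5a1, Atp5g2 and Atp5g3). Sdhc, a membrane anchor of complex II, had the smallest p. Its DLS medians were 10.60, 10.70, 10.74, 10.70, 10.57 and 10.60 at ZT2, ZT6, ZT10, ZT14, ZT18 and ZT22, with lowest libraries at 10.45, 10.46, 10.55, 10.42, 10.44 and 10.20 and highest at 10.85, 10.90, 10.96, 10.93, 10.85 and 10.81 (log2 normalised counts). The medians at ZT6, ZT10 and ZT14 were above the other 3, and the ranges overlapped. The amplitude was 0.10 ± 0.02 SE (1.15-fold, peak at 10.0 h, limma adjusted p = 0.00185).

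Atp5g2, a gene of subunit c, had the largest amplitude in DLS. Its DLS medians were 7.66, 7.95, 8.05, 8.07, 8.001 and 7.83 at ZT2, ZT6, ZT10, ZT14, ZT18 and ZT22, with lowest libraries at 7.33, 7.67, 7.68, 7.59, 6.999 and 7.42 and highest at 8.05, 8.17, 8.30, 8.26, 8.26 and 8.07 (log2 normalised counts). ZT2 was the lowest by its median, and 1 library at ZT18 stood below all others. The amplitude was 0.16 ± 0.04 SE (1.25-fold, peak at 12.2 h, limma adjusted p = 0.00252). Atp5g3 changed 1.13-fold with a peak at 12.5 h (limma adjusted p = 0.0276). Atp5g1 was the first member outside the threshold, at 1.10-fold, 12.4 h and a limma adjusted p of 0.0505. The fitted DLS peaks of the 3 genes of subunit c lay close together around lights off, near the median peak of 12.5 h of the 11 called DLS members. Atp5g1, Atp5g2 and Atp5g3 were also among the 59 of DMS.

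Ndufs3, a core subunit of the peripheral arm of complex I, was the third by p. Its DLS medians were 10.77, 10.85, 10.91, 10.89, 10.81 and 10.72 at ZT2, ZT6, ZT10, ZT14, ZT18 and ZT22, with lowest libraries at 10.63, 10.64, 10.64, 10.63, 10.49 and 10.40 and highest at 11.02, 11.11, 11.11, 11.11, 10.998 and 10.93 (log2 normalised counts). ZT10 and ZT14 held the highest medians and ZT22 the lowest, with overlap. The amplitude was 0.10 ± 0.02 SE (1.14-fold, peak at 10.2 h, limma adjusted p = 0.00387). Atp5a1 changed 1.11-fold (12.5 h, limma adjusted p = 0.00701) and Ndufb4 1.22-fold (13.7 h, limma adjusted p = 0.0145). All 11 were also called in DMS without the share (18.6% of those 59), where 72% of members and 51.3% of all genes were called. The matching overlap over all genes is not given, so this is not read as a result about the members. Of the 11, 1, Sdhaf1, was called in DMS with the share (9.09% of the 11 and 12.5% of the 8).

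Sdhaf1 was the only member called in DLS, in DMS and in DMS with the share. Its DLS medians were 8.12, 8.15, 8.32, 7.99, 7.83 and 8.17 at ZT2, ZT6, ZT10, ZT14, ZT18 and ZT22, with lowest libraries at 7.58, 7.83, 7.96, 7.67, 7.30 and 7.87 and highest at 8.33, 8.81, 8.83, 8.36, 8.24 and 8.54 (log2 normalised counts). As in DMS, ZT10 was high and ZT18 held both the lowest median and the lowest library. The amplitude was 0.15 ± 0.04 SE (1.23-fold, peak at 6.29 h, limma adjusted p = 0.0258). In NAc its medians were 8.35, 8.30, 8.44, 8.27, 8.30 and 8.38 at ZT2, ZT6, ZT10, ZT14, ZT18 and ZT22, with lowest libraries at 8.03, 7.69, 7.87, 7.44, 7.66 and 7.48 and highest at 8.75, 9.07, 9.18, 8.79, 8.996 and 9.57 (log2 normalised counts). There the ranges of all times overlapped and it did not pass the test. The DLS calls did not outlast 2 other settings. When every library was scaled to the same sum 0 of 81 passed, where 1.9% of all genes did. Among the 31 DLS libraries numbered up to 29, 0 members passed. The percentage of all genes is not given for that smaller set, so its count does not set the members apart. In these 2 settings Sdhaf1 had amplitudes of 0.11 (limma adjusted p = 0.601) and 0.18 (limma adjusted p = 0.304).

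**Figure D4:**
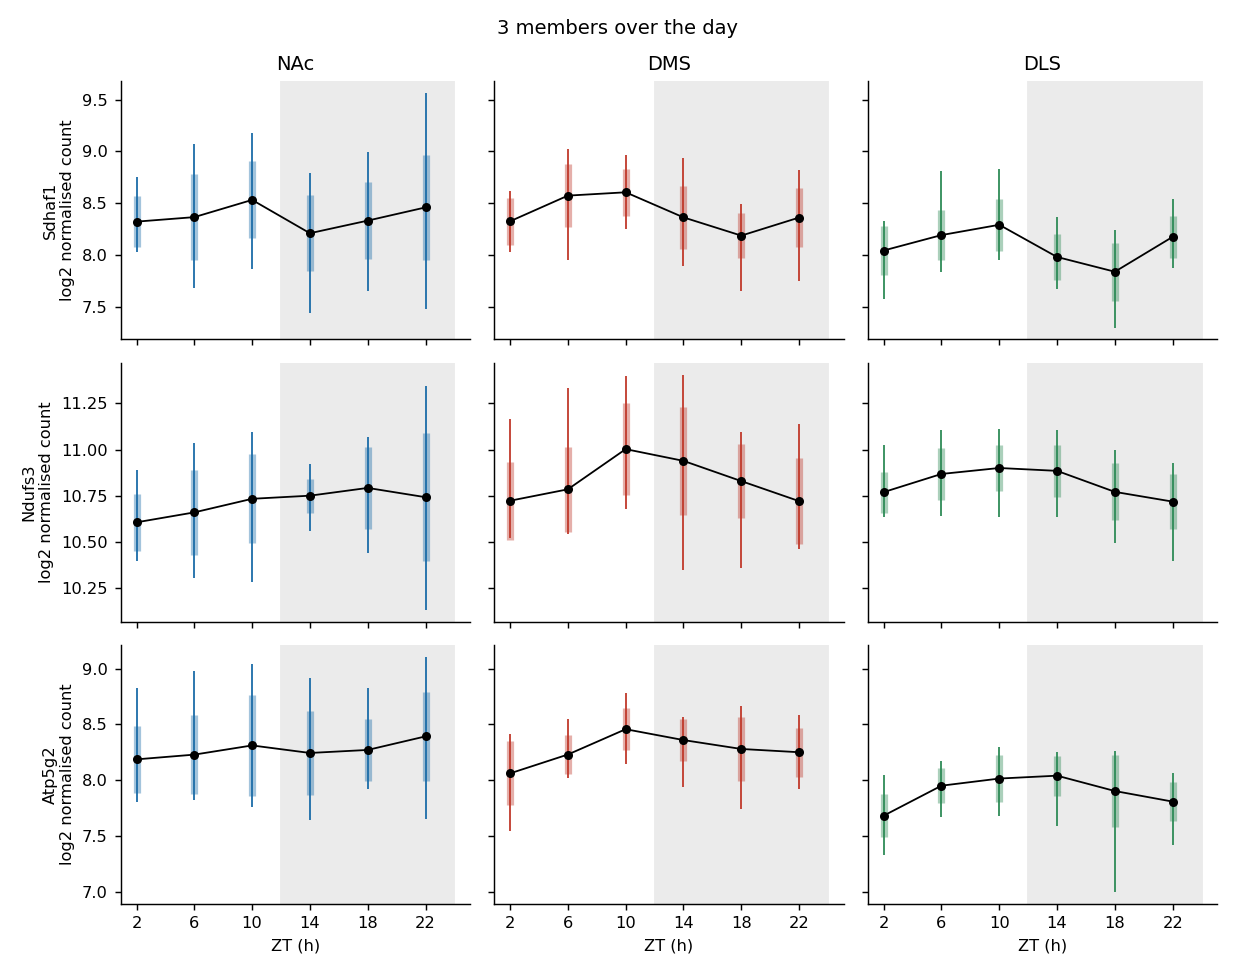
Log2 normalised counts of Sdhaf1, Ndufs3 and Atp5g2 (rows) in NAc, DMS and DLS (columns) by Zeitgeber time in h, with points at the means, thick bars of ±SD, thin lines from the lowest to the highest library and the dark phase shaded. Sdhaf1 is low at ZT18 in DMS and DLS (medians 8.24 and 7.83), and Atp5g2 is low at ZT2 in DLS (median 7.66).

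Whether regions differ in the rhythm was tested in 1 limma fit of all libraries, blocked by animal. For DMS against NAc 0 of 81 members passed after Benjamini-Hochberg adjustment (0% of all 11283 shared genes), with 53 (65.4%) at an unadjusted p under 0.05, against 22.8% of all genes. For DLS against NAc 0 passed (0.31% of all genes), with 4 at an unadjusted p under 0.05 (9.75% of all genes), and for DLS against DMS 0 passed (0%), with 6 (9.24%). With the share as a term in each region 0 of 81 passed for DMS against NAc (0% of all genes), for DLS against NAc (0.824%) and for DLS against DMS (0%). At an unadjusted p under 0.05 there were then 26, 19 and 1 members, against 11.3%, 15.5% and 2.96% of all genes. The nearest were Uqcrb, a small subunit of complex III (DMS against NAc, limma adjusted p = 0.0839), and Ndufv3 (limma adjusted p = 0.0848). A rhythm called in 1 region and not in another is therefore not shown to differ for any member.

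The rhythm was also fitted in each sex. In DLS 1 of 81 members was called in males (4.4% of all genes) and 12 in females (17.8%). The male call was Atp5g1 (1.17-fold, peak at 13.8 h, limma adjusted p = 0.0405). The female calls were led by Sdhc (1.25-fold, 9.82 h, limma adjusted p = 0.000288) and Atp5a1 (1.16-fold, 11.3 h, limma adjusted p = 0.00385). In DMS with the share 9 of 82 were called in males (13.2% of all genes) and 2 in females (14.1%), and without it 2 in males (9.92%) and 6 in females (17.9%). Sdhaf1 was called in males with the share (1.43-fold, peak at 5.53 h, limma adjusted p = 0.00361). Its peak in females was close (6.34 h, 1.24-fold), with a limma adjusted p of 0.105. In NAc 0 of 81 were called in either sex (0.295% of all genes in males, 0.716% in females), with 2 in males (8.84% of all genes) and 5 in females (11.2%) at an unadjusted p under 0.05. The test of the difference of rhythm between the sexes called 0 members in NAc, DMS and DLS (limma; 0% of all genes in each), with 0, 0 and 10 at an unadjusted p under 0.05 (4%, 3.79% and 11.3% of all genes), and 0 in DMS with the share, with 4 (8.16%).

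Dark and light phases were compared by the mean over ZT14, ZT18 and ZT22 minus the mean over ZT2, ZT6 and ZT10. Sdhaf1 was lower in the dark in DMS and in DLS, and in these fits no member was called higher in the dark in any region. In DMS it had 7.65, 8.30 and 8.94 (lowest, median and highest of 35 libraries, log2) in the dark and 7.96, 8.53 and 9.03 in the light (35). In DLS it had 7.30, 8.01 and 8.54 in the dark (36) and 7.58, 8.18 and 8.83 in the light (34). The phases overlapped widely in both. The difference was -0.20 ± 0.06 SE in DMS (limma adjusted p = 0.0365) and -0.18 ± 0.06 SE in DLS (limma adjusted p = 0.0369).

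In DMS 3 of 82 members were called, all lower in the dark, where 8.4% of all genes were called and 3.82% were lower. They were Sdhaf1, Ndufv3 (-0.12 ± 0.03 SE, limma adjusted p = 0.0129) and Atp5d, the delta subunit of the ATP synthase stalk (-0.09 ± 0.03 SE, limma adjusted p = 0.039). Of 70 fits that each left out 1 library, Sdhaf1 lost the call in 6, Atp5d in 15 and Ndufv3 in 0. A replicate block left 1 of the 3, Ndufv3. With the share 9 of 82 were lower, against 7.5% of all genes. Added were Atp5mpl, a small membrane subunit of the ATP synthase (-0.12 ± 0.03 SE, limma adjusted p = 0.00451), Cox7b (-0.11 ± 0.03 SE, limma adjusted p = 0.0173), Sdhd and Sdhb of complex II, Atp5f1 of the ATP synthase stalk, and Sdhaf3. Sdhaf1 had -0.25 ± 0.05 SE in that fit (limma adjusted p = 0.000335). Without 1 library (male ZT22 number 1) the count was 15, without another (male ZT6 number 34) it was 5, and with a term for the range of numbers it was 3. Scaling every library to the same sum shifted the dark minus light difference of all genes by -0.11 (log2) in DMS and gave 14 of 82, all lower. For these alternative fits the percentages of all genes called are not given.

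In DLS Sdhaf1 was the 1 call among 81 members, where 8.52% of all genes were called and 3.85% were lower. That call was lost in 11 of the 70 fits that left out 1 library, within each range of animal numbers, and when libraries were scaled to the same sum. In NAc 0 of 81 passed (1.28% of all genes), but the members' median difference was 0.09, against -0.0026 over all genes, and all 17 members (21%) at an unadjusted p under 0.05 were higher in the dark, against 13% of all genes at that p and 6.72% higher. Scaling to the same sum shifted the difference of every NAc gene by -0.08 and called 0 of 81. Some marker genes of other cell types were also called between the phases. In DMS the 10 oligodendrocyte markers summed to 16.8 to 17.8 in the dark and 16.9 to 18.0 in the light (log2), with wide overlap. Of these 10, 1 was called lower in the dark, where 3.82% of all genes were. In DLS the 1 choroid plexus marker measured, Clic6, was higher in the dark by 0.41 (limma adjusted p = 0.0161). Their part in the subunit values was not tested.

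Males and females were compared at the same times. In NAc 0 of 81 members differed (0.0758% of all genes), and in DLS 0 of 81 did (0.202%). At an unadjusted p under 0.05 there were 2 and 7, against 5.27% and 10.2% of all genes. In DMS 1 of 82 did, where 0.909% of all genes were called and 0.388% were lower. This was Atp5d, with 10.86, 11.25 and 11.51 (lowest, median and highest of 36, log2) in males and 11.17, 11.34 and 11.57 in 34 females. The ranges overlapped, with the lowest libraries male. The difference was -0.11 ± 0.03 SE (limma adjusted p = 0.0291), and Cbarp overlaps Atp5d on the opposite strand. The count turned with the animal numbers: among those from 31, 7 members were called, all higher in males (7.16% of all genes called), and with a term for the range 6 were, 4 higher and 2 lower in males (16.5% of all genes called).

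With the share in the DMS model 32 of 82 members were lower in males and 0 higher, where 4.39% of all genes were lower and 8.1% were called. They were 8 of complex I, 1 of complex II, 1 assembly factor, 5 of complex III, 7 of complex IV and 10 of complex V. Atp5e, the epsilon subunit of the ATP synthase, had the largest difference of those led by p (-0.21 ± 0.04 SE, limma adjusted p = 0.00198), followed by Uqcr10 of complex III (-0.18 ± 0.04 SE, limma adjusted p = 0.00228). Sex and animal number were linked in DMS, with 9 male and 17 female libraries from 31 and 27 male and 17 female up to 29. Within the numbers up to 29 Atp5e had medians of 9.29 in males and 9.34 in females, and within those from 31 10.16 in males and 10.11 in females. In both ranges, and with a term for the range, 0 of 82 members differed with the share. The percentages of all genes called in these fits are not given, so the counts of 0 do not set the members apart from other genes. The 2 choroid plexus markers measured of 5, Ttr and Clic6, were lower in males in the fit that called the 32 members (-3.54 and -0.80). They summed to a median of 8.25 in males (7.25 to 16.2, log2) and 12.2 in females (7.75 to 15.9). Their part in the subunit values was not tested.

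The relation of the subunits to the mitochondrial rRNA share was tested in limma with sex and time in the model. In NAc 75 of 81 members were related to it, where 63.1% of all genes were, 73 higher with a higher share (31.8% of all genes) and 2 lower (31.3%), Sdha and Ndufa10. In DMS 80 of 82 were related (79.2% of all genes), 78 higher (39.6%) and 2 lower (39.6%), Cox6a2 and Ndufa10. In DLS 53 of 81 were related (41%), 50 higher (20.8%) and 3 lower (20.2%), Sdhaf2, Atp5d and Ndufa10. Across all 3 regions 48 members were higher with the share, and 1 was lower, Ndufa10, an accessory subunit of complex I. The median slope was 0.03 log2 per percentage point in NAc, 0.027 in DMS and 0.0097 in DLS, which is 1.24-fold, 1.20-fold and 1.07-fold for 10 points. Over all genes NAc had a median slope of 0.00055, DMS one of -2e-05 and DLS one of 0.00029.

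The member with the steepest slope differed between the regions. Atp5k led in NAc (0.051 ± 0.004 SE per point, limma adjusted p = 2.52e-18). Uqcrh, the hinge protein of complex III, led in DMS (0.048 ± 0.002 SE, limma adjusted p = 6e-30). Among DLS members Atp5s led (0.028 ± 0.007 SE, limma adjusted p = 0.00135), followed by Ndufb4 (0.026 ± 0.004 SE, limma adjusted p = 1.55e-07). Members had a median annotated exon length of 1756 bp in NAc, against 4755 bp over all genes. Slope and exon length had a Spearman rho of -0.377, -0.303 and -0.169 across members in NAc, DMS and DLS, and of -0.395, -0.384 and -0.213 across all genes, which are not independent replicates. Other genes of at most 2000 bp had median slopes of 0.02, 0.016 and 0.0059. Scaled to the same sum, which shifted every gene by -0.031 per point in NAc, by -0.03 in DMS and by 0.011 in DLS, the counts were 45 of 81 (21 higher, 24 lower), 54 of 82 (17 higher, 37 lower) and 53 of 81 (53 higher). The shift was close to the members' median slope in NAc and DMS, so the split between higher and lower there is set by the scaling. No percentages of all genes are given for the rescaled fits.

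**Figure D5:**
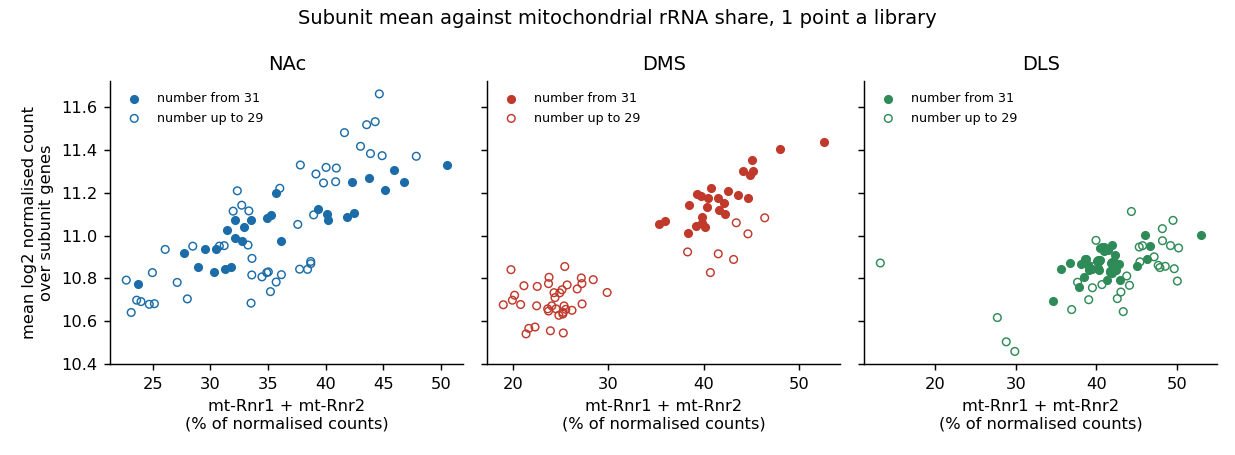
Mean log2 normalised count over the members against the mitochondrial rRNA share (% of normalised counts) in NAc, DMS and DLS, with 1 point a library, filled for animal numbers from 31 and open for numbers up to 29. In DMS the 26 filled points have shares of 35.3 to 52.6% and means of 11.01 to 11.44, and the 44 open points shares of 19.02 to 46.4% and means of 10.54 to 11.08.

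The members varied together between libraries. After sex and time were removed, the median correlation between 2 members was 0.748 over 77 libraries in NAc, 0.853 over 70 in DMS and 0.514 over 70 in DLS, and about 0 between any 2 genes (-0.00052, -0.00099 and -0.0011). With the share removed too it was 0.538, 0.453 and 0.504. These values describe libraries that share depth and scaling, and are given with no test.

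The rest of the pathway was read from lists of genes that work with the subunits. The rhythmic counts below stand beside 2.56% of all genes in NAc, 51.3% in DMS, 28.6% in DMS with the share and 21% in DLS. The subunits encoded in mitochondrial DNA, such as mt-Nd1 of complex I and mt-Co1 of complex IV, had 0 of 12 rhythmic in NAc, 8 of 13 in DMS, 0 of 13 in DMS with the share and 0 of 13 in DLS. With a higher share 12 of 12 were higher in NAc (31.8% of all genes), 9 of 13 in DMS (39.6%) and 6 of 13 in DLS (20.8%). Of the other assembly factors 0 of 41 were rhythmic in NAc, 18 of 41 in DMS, 8 of 41 in DMS with the share and 7 of 40 in DLS. Atpaf1 and Atpaf2, chaperones that put together the catalytic head of the ATP synthase, were among them in DMS with the share (1.17-fold at 7.97 h and 1.22-fold at 4.22 h, limma adjusted p = 0.00229 and 0.0101) and in DLS (1.16-fold at 8.77 h and 1.20-fold at 4.57 h, limma adjusted p = 0.00724 and 0.0458). Both were lower in the dark in DLS (-0.10 ± 0.03 SE and -0.17 ± 0.06 SE) and in DMS (-0.13 ± 0.04 SE and -0.16 ± 0.05 SE). They peaked in the light, as Sdhaf1 and Sdhaf3 did in DMS with the share.

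Of 16 genes of the citric acid cycle and pyruvate dehydrogenase, 0 were rhythmic in NAc, 11 in DMS, 3 in DMS with the share and 3 in DLS. Idh3g, a regulatory subunit of the NAD-dependent isocitrate dehydrogenase, changed 1.19-fold in DMS with the share (6.76 h, limma adjusted p = 4.08e-06) and 1.15-fold in DLS (9.21 h, limma adjusted p = 0.00251). It was lower in the dark in both (-0.16 ± 0.03 SE and -0.11 ± 0.03 SE). Of cytochrome c, cytochrome c1 and the ATP synthase inhibitor, 0 of 3 were rhythmic in NAc, 1 in DMS, 0 in DMS with the share and 1 in DLS, the inhibitor Atpif1 in each case. Of 15 transcription regulators of respiratory genes, 0 were rhythmic in NAc, 6 in DMS, 7 in DMS with the share and 2 in DLS. The DLS pair was Esrra, an orphan receptor that binds the ERR motif (1.15-fold, peak at 18.7 h, limma adjusted p = 0.0101), and Nrf1 itself (1.21-fold, peak at 23.4 h, limma adjusted p = 0.0125). Both peaked in the dark. The 11 rhythmic DLS members peaked at 6.29 to 13.7 h, 7 of them also in the dark. No link between these regulators and the subunits was tested. Marker lists also held rhythmic genes, with 6 of 10 striatal, 2 of 10 oligodendrocyte and 7 of 11 endothelial and mural markers in DLS and 8 of 10, 5 of 10 and 7 of 11 in DMS with the share, and what they contribute to the subunit values was not tested.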

How the data were processed

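Stranded total RNA libraries were sequenced from tissue punches, per the labels' protocols. Reads were aligned with HISAT2 2.1.0 and counted with HTSeq 0.10.0, per the submitters' processing notes, and the authors deposited log2 values of DESeq2-normalised counts, filtered and normalised in each region separately. Levels are therefore compared within a region. Strand use in counting is not given in the sources used here, and 40 members are overlapped by another gene (32 on the opposite strand). DMS and DLS values were whole reads times a library step (tolerance 0.01) and NAc values were not. Sequencing reads are not independent molecules, and errors are those between libraries.

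Symbols, exon lengths and coordinates came from GENCODE M21 (GRCm38). Tests were limma 3.58.1 fits (R 4.3.3) over all genes of a region, with a variance trend and Benjamini-Hochberg adjustment at 0.05: a 24 h cosine and sine (2 degrees of freedom) with a sex term, contrasts of phase and sex with time as 6 levels, and the mt-Rnr1 and mt-Rnr2 share as a covariate or as the tested term. The region comparison used 11283 genes in all 3 tables and the animal as a block (correlation 0.0393). The labels name the animal, and libraries of 1 animal had median residual correlations of 0.118 (63 animals, NAc and DMS), 0.0381 (57, NAc and DLS) and 0.111 (51, DMS and DLS). Alternatives were equal sums, a replicate block, 6 time levels, the share, limma-voom on recovered reads, no variance trend, a level filter of 5, single libraries left out and, chosen after seeing the data, ranges of animal numbers. Python 3.11.15, pandas 2.3.3, numpy 2.4.6, matplotlib 3.10.9 and the data.table package (1.17.8) handled tables and plots. Members were named by smallest adjusted p in each test (up to 10 for rhythm, 5 otherwise), as core subunits, as isoform families or as the highest and lowest of a complex, with up to 4 called genes of each pathway list. Those nearest a threshold, those with the steepest slopes, Ndufa12, Atp5mpl and Atpaf2 were named after their values were seen. Members, lists and tests were chosen with earlier results of these data known.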

Additional observations from a re-analysis of the deposited data

Results flagged for a closer look

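In DMS 1 library stood far from its group in the mean log2 value over the members. The male ZT2 library numbered 31 had 11.2078, against 10.5728 to 10.6716 in the other 5 male ZT2 libraries, and its gap to the nearest was 0.844 of the group's range. Its mitochondrial rRNA share was 42.6%. It was the only library of its group numbered from 31, and the other 5 were numbered up to 29. Over both sexes, DMS ZT2 libraries from 31, this one among them, averaged 11.222, and those up to 29 averaged 10.665. In all 36 groups of 1 region, sex and time were examined in this way, and chance flags about 1 in 20 groups.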

How the results depend on the processing

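Of 127 alternative counts, 91 stayed within 1.5 times of the reported one. With equal sums, NAc share-related members numbered 45, DMS rhythmic ones with the share 22, DMS lower in the dark 14 (18 with the share), DMS sex-different with the share 18 (17 lower, 1 higher), DLS rhythmic 0 and DLS dark against light 0. With 6 time levels the rhythmic counts were 27 in DMS, 31 in DMS with the share and 7 in DLS, and with the share as covariate 2 in NAc and 7 in DLS (NAc sex difference 5). Males and females of the same number did not deviate together (median r -0.134, 0.062 and 0.0495 in NAc, DMS and DLS, 1 of 24 DLS males best with its own number and 0 elsewhere), and a replicate block on the number gave 33 rhythmic members in DMS, 1 lower in the dark in DMS, 0 in DLS and 2 sex-different in DMS. Ranges of animal numbers were added after seeing the data. Up to 29, the rhythmic counts were 23 in DMS, 2 in DMS with the share and 0 in DLS, those of dark against light 1 in NAc, 1 in DMS with the share and 0 in DLS, and those of sex 0 in DMS with or without the share. From 31, they were 1 rhythmic in DMS and 3 in DLS, 0 for dark against light in DMS and DLS and 1 in DMS with the share, and for sex 7 in DMS (all higher in males) and 0 with the share. A term for the range gave 15 rhythmic in DMS, 3 for dark against light with the share, and for sex 6 in DMS (4 higher, 2 lower in males) and 0 with the share. The cause of these shifts was not tested. These counts of members are given without the percentages of all genes called.

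Of 647 alternatives for single members 479 kept direction and call, 161 lost the call and 7 turned. With equal sums the DMS slope on the share turned to -0.00164 for Uqcrfs1, -0.00553 for Uqcrc2 and -0.00288 for Atp5f1. From 31 alone, the DMS sex difference with the share turned to 0.0227 for Atp5o, 0.0595 for Ndufa3, 0.0237 for Atp5f1 and 0.0334 for Sdhb.

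Leaving out 1 library gave 0 to 1 rhythmic members in NAc, 47 to 67 in DMS, 6 to 15 in DMS with the share (15 without male ZT22 number 1) and 9 to 17 in DLS (17 without female ZT2 number 9). It gave 0 to 1 dark-against-light calls in NAc and DLS, 1 to 3 in DMS (1 without male ZT14 number 24) and 5 to 15 in DMS with the share. Sex-different members were 0 to 0 in NAc and DLS, 1 to 2 in DMS and 21 to 48 with the share (21 without male ZT22 number 4 or 5). Share-related ones were 75 to 77, 79 to 80 and 51 to 62 in NAc, DMS and DLS. Sex differences of rhythm stayed at 0. NAc depth is unknown, and a change that depth could hide there was not assessed.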
